A study of Arabidopsis thaliana with 6 samples.

Results

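Type I MADS-box genes encode transcription factors that carry the MADS DNA-binding domain, usually from a gene with a single coding exon. They are sorted by sequence into M-alpha, M-beta and M-gamma subfamilies, and proteins of different subfamilies bind each other as dimers. In Arabidopsis thaliana many are active in the embryo sac, the central cell or the endosperm, the nourishing tissue of the seed, where they bear on when the endosperm forms cell walls, and some are imprinted. Here 54 genes of this family were chosen as a fixed set of loci. The rule lists loci and uses no expression value, but earlier results of these data were known when the set was chosen. All 54 were found among the 33602 loci of the table. The assignment used below, made from general knowledge, has 20 M-alpha, 16 M-beta and 14 M-gamma genes, and 4 genes (AGL33, AT1G48150, AT5G38620 and AT5G49420) were left unassigned. For 45 of the 50 assigned genes, the member with the most similar first 180 coding bases belonged to the same subfamily.

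RNA came from F1 endosperm nuclei at 4 days after pollination, purified by INTACT, which captures nuclei through a tagged envelope protein. In Cm x L the mother was the TEmob line and the father Landsberg erecta (Ler). In L x Cm the mother was Ler carrying pi-1, a mutation that removes petals and stamens, and the father was TEmob. TEmob is 1 diploid line in Columbia-0, labelled INT for the tag used in INTACT. Seeds were germinated on α-amanitin, an inhibitor of RNA polymerase II, and 40 µM zebularine, an inhibitor of DNA methylation, with a period at 37 °C. The line then went through a haploid stage after a cross to a CENH3-TAILSWAP plant and was doubled with colchicine. Both crosses thus share TEmob and the tag. They differ in which accession gave the larger, maternal genome dose, in the parent that brought the tag, in the pi-1 mutation of the mother, and in how closely the maternal genome matches the Columbia reference, and these cannot be told apart. The promoter of the tag is not given in the sources used here. Each cross had 3 libraries, and nothing says that these came from separate plants, so p-values measure the spread between libraries, which may be technical.

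The libraries held 21.2 to 29.2 M reads as recovered from the table, whose values are RPKM, reads per kilobase of gene and per M reads. For a gene of 1 kb a single read gave between 0.0342 and 0.0471 RPKM. Zeros were uneven, with 1005 to 10084 loci listed at 0 per Cm x L library, most of them in replicate 3, and 1270 to 3636 per L x Cm library. Endosperm markers were present in every library, with a summed level of 219 to 231 RPKM in Cm x L and 218 to 282 in L x Cm over 5 genes. Markers of other tissues were present as well. The summed level of 6 seed coat markers was 138, 193 and 461 RPKM in Cm x L, against 257, 388 and 522 RPKM in L x Cm, in the order of replicates 1, 2 and 3 that all lists of values below keep. For 6 embryo markers the sums were 4.62, 9.83 and 3.33 RPKM in Cm x L and 92.6, 47.7 and 44.2 RPKM in L x Cm. For 5 pollen markers they were 120, 668 and 55.6 RPKM in Cm x L and 613, 2324 and 928 RPKM in L x Cm. In bulk nuclei, fewer nuclei of a type and less RNA per nucleus cannot be told apart. The part of these other tissues in the differences below was not tested.

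Several members are close copies, which matters because a read from a shared stretch fits more than 1 of them, and how such reads were counted is not given in the sources used here. Among the coding sequences, 11 pairs of members were over 80% identical, and they involved 18 genes. The starts of 4 such groups, of which the last pair lies under that limit, are shown because their members are set side by side below. Each is the first 120 coding bases, 5′ to 3′, from RefSeq's TAIR10.1, with capitals at the positions where the genes of the group differ.

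PHE1 (chr1:24267201-24267320, minus strand): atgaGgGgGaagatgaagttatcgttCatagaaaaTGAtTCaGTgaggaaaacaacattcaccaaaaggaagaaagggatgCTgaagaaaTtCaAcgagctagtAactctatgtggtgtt
AGL38 (chr1:24254929-24255048, plus strand): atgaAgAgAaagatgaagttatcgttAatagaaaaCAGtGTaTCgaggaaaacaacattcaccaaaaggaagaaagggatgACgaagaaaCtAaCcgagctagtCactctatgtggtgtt
AGL36 (chr5:9343785-9343904, plus strand): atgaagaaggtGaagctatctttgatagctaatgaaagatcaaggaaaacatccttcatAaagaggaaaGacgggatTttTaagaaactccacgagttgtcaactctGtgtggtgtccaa
AGL90 (chr5:9992651-9992770, minus strand): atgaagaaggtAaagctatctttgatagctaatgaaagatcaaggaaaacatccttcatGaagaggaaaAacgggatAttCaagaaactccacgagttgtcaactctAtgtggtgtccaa
AGL58 (chr1:10003966-10004085, plus strand): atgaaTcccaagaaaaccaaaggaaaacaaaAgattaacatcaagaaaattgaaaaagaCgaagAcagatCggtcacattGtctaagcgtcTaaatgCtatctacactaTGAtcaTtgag
AGL59 (chr1:10006230-10006349, plus strand): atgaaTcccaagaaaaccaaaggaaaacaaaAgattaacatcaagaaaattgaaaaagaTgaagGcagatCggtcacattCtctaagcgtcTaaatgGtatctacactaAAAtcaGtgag
AGL64 (chr1:10496730-10496849, plus strand): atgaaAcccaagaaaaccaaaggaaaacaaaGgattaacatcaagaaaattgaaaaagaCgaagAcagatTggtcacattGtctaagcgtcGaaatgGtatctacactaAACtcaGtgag
AGL28 (chr1:193543-193662, minus strand): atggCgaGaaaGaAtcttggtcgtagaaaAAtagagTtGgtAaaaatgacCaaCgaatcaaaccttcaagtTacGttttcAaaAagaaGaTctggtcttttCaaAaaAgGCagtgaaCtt
AGL23 (chr1:24281337-24281456, plus strand): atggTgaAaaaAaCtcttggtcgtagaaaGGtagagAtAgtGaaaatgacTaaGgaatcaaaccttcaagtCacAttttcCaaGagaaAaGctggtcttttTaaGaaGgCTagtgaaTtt

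PHE1 and AGL38, also named PHE2, differ at 17 of these positions and are 85.9% identical over the coding sequence, with 120 bases as their longest shared run. AGL36 and AGL90 differ at 6 positions and are 84.2% identical, with a shared run of 102 bases. AGL58, AGL59 and AGL64 vary at 12 positions and are 90.9% to 93.5% identical to each other. AGL28 and AGL23 differ at 23 positions and are 74.4% identical, with no shared run over 31 bases. Values of near copies are therefore uncertain individually. The copies most alike were AGL49 and AGL50, at 97.1%, with a shared run of 203 bases.

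Levels spanned a wide range. The unassigned AGL33 was the most abundant of the 54 genes, and its place among type I genes was not tested. By the first 180 coding bases its nearest member was AGL62 (53.8%). Over the whole coding sequences the 2 genes were 27.1% identical. That value counts gaps, so it is lowered by the unlike lengths, 330 bases in AGL33 and 900 in AGL62. AGL33 had 289, 289 and 163 RPKM in Cm x L and 385, 400 and 83.3 RPKM in L x Cm. The M-alpha gene AT4G36590 had 215, 176 and 201 RPKM in Cm x L, against 281, 272 and 184 RPKM in L x Cm. In both genes the crosses overlapped, and L x Cm replicate 3 was the lowest library of its cross. AGL87, of the M-gamma subfamily, had 226, 168 and 49.8 RPKM in Cm x L and 117, 92.6 and 62.3 RPKM in L x Cm. AGL91, an M-alpha gene, had 102, 106 and 55.9 RPKM in Cm x L and 99.0, 132 and 65.3 RPKM in L x Cm. For both, replicate 3 was the lowest library of each cross. AGL33, AT4G36590, AGL87, AGL91 and AGL38 together made up 78.4%, 74.7% and 58.7% of the summed level of the family in Cm x L, and 61.2%, 67.5% and 49.1% in L x Cm. None of the 5 passed the test between crosses that is given below. Mean levels over the 6 libraries ran from 0.817 to 222 RPKM in M-alpha (median 5.86) and from 0.392 to 119 RPKM in M-gamma (median 9.70). In M-beta they ran from 0.191 to 5.21 RPKM (median 1.19). The summed level of the family was 1137, 1074 and 919 RPKM in Cm x L and 1543, 1397 and 888 RPKM in L x Cm, and the crosses overlapped. The M-alpha sums, at 430, 402 and 424 RPKM in Cm x L and 667, 614 and 461 RPKM in L x Cm, did not overlap. AT4G36590 and AGL91, whose own values overlapped, were the largest parts of the M-alpha sums. The M-beta sums, at 2.38, 13.0 and 3.35 RPKM in Cm x L and 58.8, 36.4 and 23.7 RPKM in L x Cm, did not overlap either. The M-gamma sums, at 406, 354 and 322 RPKM in Cm x L and 423, 339 and 314 RPKM in L x Cm, overlapped, as did those of the unassigned genes, which AGL33 led.

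**Figure D1:**
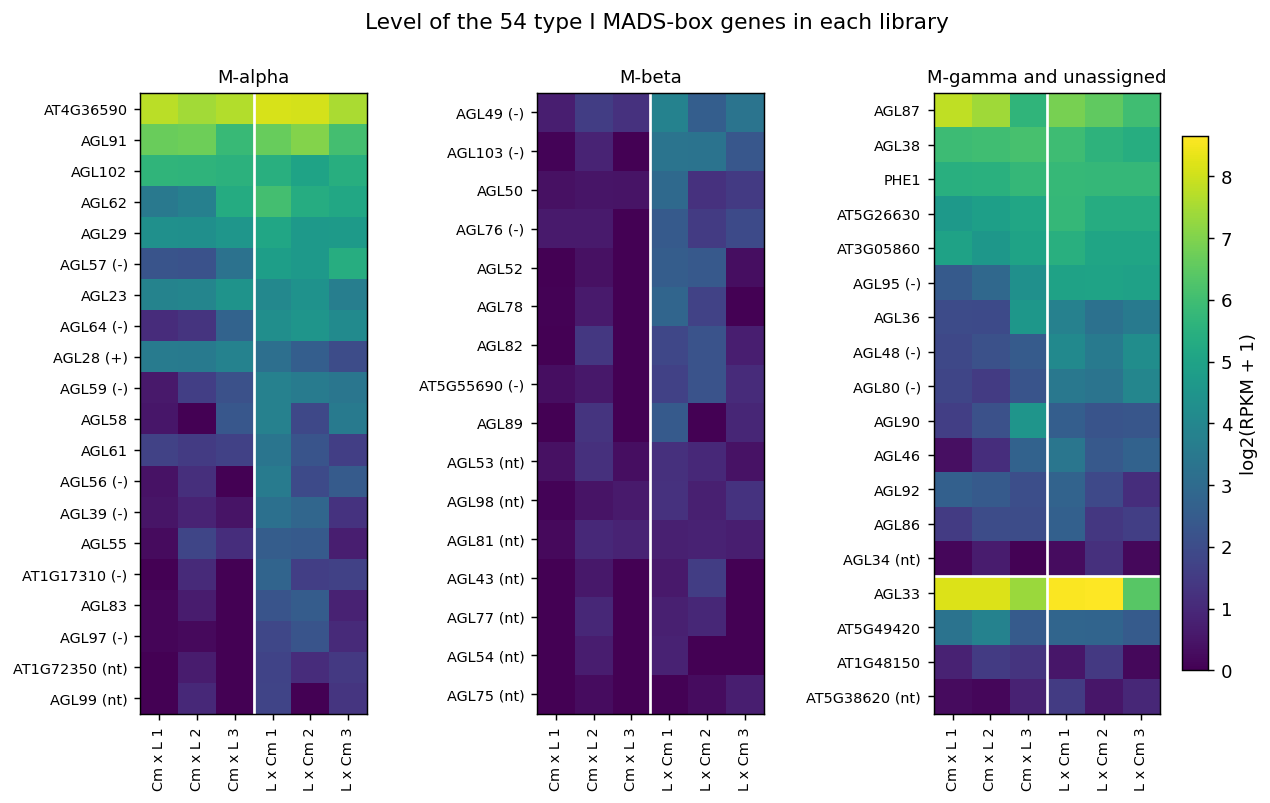
Level of each of the 54 genes (rows, by subfamily and mean level) in each library (columns, Cm x L left of the white line and L x Cm right of it), as log2(RPKM + 1) in colour; (+) marks genes higher and (-) genes lower in Cm x L at an adjusted p under 0.05, and (nt) genes under a mean of 1 RPKM that were not tested. M-beta genes are dark in all libraries, with means of at most 5.21 RPKM, and many are listed at 0 in Cm x L replicate 3.

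The crosses were compared on log2(RPKM + 1) with limma over all 26620 loci that had a mean of at least 1 RPKM, 2-sided, with Benjamini-Hochberg adjustment over these loci. Each difference is the mean of Cm x L minus that of L x Cm, and on this scale it understates the change of low genes. Of the 54 members, 43 passed that minimum. The other 11 had means of 0.191 to 0.957 RPKM and were not tested. A low gene can pass the minimum through the cross in which it is high, so the 43 are not the whole family. All 11 untested members had the higher mean in L x Cm. How many of all loci under that minimum shared this direction was not counted. At means of 1 to 5 RPKM, 33.2% of tested loci passed the test with this direction and 0.465% with the opposite one. The direction of the untested members is therefore not read as a trait of the family. A gene that did not pass is not thereby shown to be equal between crosses. Of the tested members, 14 were lower in Cm x L (32.6%), where 18.3% of all tested loci were lower, and 1 was higher (AGL28), where 6.73% of all tested loci were higher. The share of lower loci depended strongly on level, so the count is given by level as well, in bands set with earlier results known. Between means of 1 and 5 RPKM, 7 of 19 members were lower, beside 33.2% of all tested loci at that level. Between 5 and 20 RPKM, 6 of 12 members were lower, beside 13.4% of loci, and AGL28 was higher, beside 6.35%. At 20 RPKM or more 1 of 12 was lower, beside 6.7% of loci. By subfamily, 7 of 18 tested M-alpha genes, 4 of 9 M-beta genes and 3 of 13 M-gamma genes were lower. Without 1 library these counts ran from 2 to 8 in M-alpha, from 1 to 6 in M-beta and from 2 to 6 in M-gamma. With quantile normalization they were 3, 1 and 3, so no order among the subfamilies is read from them. The median difference was −1.13 over the tested members and −0.22 over all tested loci.

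Scaling between libraries bears on these counts. Quantile normalization moved the median of all tested loci from −0.22 to 0.04 and cyclic loess normalization moved it to 0.02. The members then had medians of −0.38 and −0.29. With quantile normalization 7 members were lower and 2 higher (6.53% and 7.78% of all loci), and with cyclic loess 9 were lower and 2 higher (7.33% and 5.69%). Of the 14 lower genes, 6 stayed lower under both scalings, namely AGL48, AGL57, AGL59, AGL64, AGL95 and AGL103. Every Cm x L library lay below every L x Cm library in 19 of the 43 members, beside 29.8% of all tested loci. Every Cm x L library lay above in 2 members, AGL28 and AGL102, beside 15.7%. Leaving out 1 library left 5 to 16 lower members. The share of all loci called in each such fit was not counted, here, for the subfamilies or for the lists below. A changed count may thus reflect a change over all loci. Without L x Cm replicate 1, for example, AGL95 kept its difference (−1.75, against −1.74) while its adjusted p by limma rose from 0.026 to 0.079. Of the 14 lower calls, 5 were kept in all 6 such fits (AGL48, AGL57, AGL64, AGL80 and AGL103). AGL49, AGL56 and AGL59 kept theirs in 4 fits, AGL76 and AT1G17310 in 2, and AGL39, AGL95, AGL97 and AT5G55690 in 1. The count fell to 6 without Cm x L replicate 1, to 5 without L x Cm replicate 1 and to 7 without L x Cm replicate 2.

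**Figure D2:**
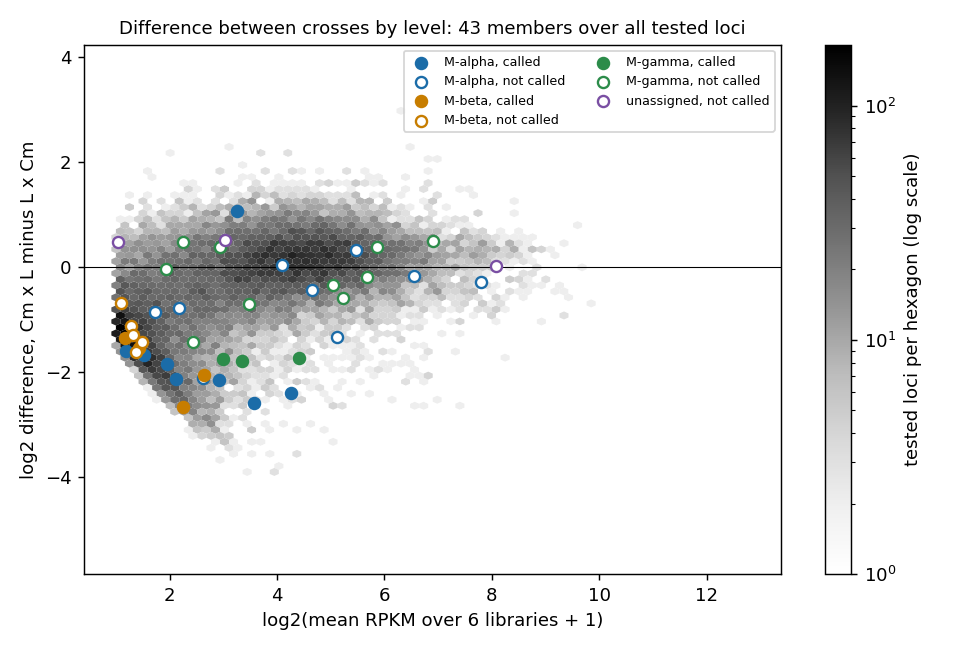
Difference between crosses (vertical axis, Cm x L minus L x Cm on the log2(RPKM + 1) scale) against the mean level (horizontal axis, log2 of the mean RPKM over the 6 libraries + 1) for the 43 tested members (circles, coloured by subfamily, filled where the adjusted p was under 0.05) over all 26620 tested loci (grey hexagons, darker for more loci). Of the 14 filled circles below 0, 7 lie at means under 5 RPKM, where lower calls were frequent among all loci, and AGL28 is the filled circle above 0.

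Among M-alpha genes, the most abundant that was lower was AGL57. It had 3.73, 3.53 and 8.54 RPKM in Cm x L, against 27.9, 24.3 and 41.0 RPKM in L x Cm. The recovered reads behind these values were 68, 52 and 118 in Cm x L and 474, 329 and 542 in L x Cm. The groups were well apart, by −2.41 on the log2 scale (SE 0.34, adjusted p = 0.0069 by limma). AGL64 had 1.16, 1.44 and 5.74 RPKM in Cm x L and 18.4, 21.7 and 16.6 RPKM in L x Cm (−2.59, SE 0.43, adjusted p = 0.0090). Its close copies AGL59 and AGL58 stood in the same order. AGL59 had 0.498, 2.01 and 3.45 RPKM in Cm x L, against 12.8, 11.2 and 9.62 RPKM in L x Cm (−2.16, SE 0.41, adjusted p = 0.013). AGL58 had 0.429, 0 and 4.04 RPKM in Cm x L, against 12.9, 2.64 and 10.7 RPKM in L x Cm, where replicate 2 lay below the highest Cm x L library, and it did not pass (adjusted p = 0.062; without Cm x L replicate 3 it did, at 0.015, in a range of 0.015 to 0.29). In all 3 copies replicate 3 was the highest of the Cm x L libraries. The other lower M-alpha genes, AGL39, AGL56, AGL97 and AT1G17310, had at most 1.26 RPKM in any Cm x L library, and between 1.06 and 11.2 RPKM in the libraries of L x Cm.

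AGL28 was the 1 member that was higher. It is best known for its effect on flowering time when overexpressed. It had 11.0, 10.8 and 13.3 RPKM in Cm x L, against 7.92, 4.96 and 3.07 RPKM in L x Cm, so the groups did not overlap (log2 difference 1.07, SE 0.32, adjusted p = 0.043 by limma). The margin was narrow. The call was kept without L x Cm replicate 1 (adjusted p = 0.041) and lost without any of the other libraries, with adjusted p from 0.075 to 0.11. AGL23, its nearest relative, is required for embryo sac development. AGL23 had 13.7, 14.2 and 20.8 RPKM in Cm x L and 15.5, 20.2 and 12.0 RPKM in L x Cm, with overlapping groups and a difference of 0.03 (SE 0.25, adjusted p = 0.93). Whether the difference of AGL28 departed from that of AGL23 was not tested.

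AGL62 delays the formation of cell walls in the endosperm, and its loss brings cellularization forward. It had 10.2, 12.6 and 38.7 RPKM in Cm x L and 65.2, 39.7 and 35.7 RPKM in L x Cm. Replicates 1 and 2 of Cm x L were low, whereas replicate 3 lay inside the range of L x Cm. The gene did not pass (log2 difference −1.34, SE 0.46, adjusted p = 0.066), and without Cm x L replicate 3 it did (−1.91, adjusted p = 0.0036, with 0.0036 to 0.20 across the 14 alternatives). Further M-alpha genes showed smaller differences. AGL102 had 46.4 to 49.4 RPKM in Cm x L and 31.5 to 42.8 RPKM in L x Cm (adjusted p = 0.19). AGL29 had 18.8 to 22.4 RPKM in Cm x L and 24.8 to 33.7 RPKM in L x Cm (adjusted p = 0.11). AGL29 is uncertain, since it lies wholly within AT2G34450 on the opposite strand, which had 16.0 to 19.8 RPKM in Cm x L and 22.5 to 36.2 RPKM in L x Cm, and the use of strand is not given.

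AGL80 and AGL61 encode partners that bind each other and are needed for the central cell, from which the endosperm arises. AGL80, an M-gamma gene, had 2.46, 1.85 and 3.73 RPKM in Cm x L, against 10.1, 9.04 and 14.8 RPKM in L x Cm. Every Cm x L library was below every L x Cm library (log2 difference −1.75, SE 0.31, adjusted p = 0.010 by limma), and the call was kept in each of the 6 fits without 1 library. With quantile normalization it fell just short (adjusted p = 0.0504, the highest of its 14 alternatives, which went down to 0.0050). AGL61, an M-alpha gene also called DIANA, had 2.23, 1.82 and 2.17 RPKM in Cm x L and 9.17, 3.80 and 2.02 RPKM in L x Cm. Its L x Cm libraries spread widely and reached the Cm x L range, and it did not pass (−0.78, SE 0.46, adjusted p = 0.225), with a direction that turned under both scalings (0.051 and 0.029).

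Among other M-gamma genes, AGL48 and AGL95 were lower in Cm x L. AGL48 had 2.70, 3.46 and 4.57 RPKM in Cm x L, against 16.1, 10.9 and 17.7 RPKM in L x Cm, a log2 difference of −1.79 (SE 0.28, adjusted p = 0.0078 by limma). These values rested on 88, 91 and 113 reads in Cm x L and 490, 264 and 419 reads in L x Cm. AGL95 had 4.51, 6.54 and 19.3 RPKM in Cm x L, against 30.3, 31.5 and 30.1 RPKM in L x Cm (−1.74, SE 0.43, adjusted p = 0.026). Its L x Cm libraries were nearly alike, and Cm x L replicate 3 stood between the rest of its cross and L x Cm. The call of AGL95 was strengthened without Cm x L replicate 3 (−2.29, adjusted p = 7.3e-04) and lost without any other library, with adjusted p from 0.053 to 0.081. AT5G26630 had 24.9, 28.1 and 33.5 RPKM in Cm x L and 53.5, 39.5 and 39.6 RPKM in L x Cm, which did not overlap but missed the threshold (−0.59, SE 0.19, adjusted p = 0.053). It passed under both scalings (adjusted p = 0.045 and 0.041) and without Cm x L replicate 3 (0.032), in a range of 0.032 to 0.17. AT3G05860, with 22.6 to 31.5 RPKM in Cm x L and 32.7 to 42.5 RPKM in L x Cm, did not pass either (adjusted p = 0.21).

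PHE1 is an imprinted gene expressed from the paternal allele, with the maternal allele repressed by a Polycomb complex. It had 42.4, 44.3 and 52.8 RPKM in Cm x L and 53.8, 53.5 and 52.6 RPKM in L x Cm. The crosses overlapped at replicate 3 of each, with a difference of −0.20 (SE 0.15, adjusted p = 0.34). AGL38 had 59.6, 63.3 and 69.5 RPKM in Cm x L and 61.8, 46.9 and 41.0 RPKM in L x Cm, again with overlap (0.37, SE 0.19, adjusted p = 0.16). The values add the reads of both parental alleles, so neither gene's imprinting can be read from them.

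AGL36, known as a maternally expressed imprinted gene, and its copy AGL90 were set apart by a single library. AGL36 had 2.90, 2.80 and 23.1 RPKM in Cm x L, against 12.9, 8.41 and 10.8 RPKM in L x Cm. AGL90 had 2.02, 3.44 and 21.9 RPKM in Cm x L, against 5.00, 3.78 and 3.92 RPKM in L x Cm. In both, Cm x L replicate 3 was the highest of the 6 libraries and replicates 1 and 2 were the lowest. The recovered reads of AGL36 in Cm x L were 104, 81 and 627, and those of AGL90 were 57, 78 and 468. Neither gene passed with all libraries (AGL36 −0.71, SE 0.67, adjusted p = 0.45; AGL90 0.37, SE 0.68, adjusted p = 0.70). Without Cm x L replicate 3, AGL36 passed as lower (−1.59, adjusted p = 0.0074, in a range of 0.0074 to 0.81), while AGL90 turned to −0.51 (adjusted p = 0.29). AGL34, a further relative of AGL36 at 85.2% identity, had 3, 14 and 1 reads in Cm x L and 6, 29 and 3 reads in L x Cm, and its mean was under the minimum for the test.

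Cm x L replicate 3 stood out in more of the family, a count chosen after its values were seen. It was at least 2-fold above both other Cm x L libraries in 8 of 43 tested members, beside 5.15% of all tested loci. These were AGL36, AGL46, AGL57, AGL58, AGL62, AGL64, AGL90 and AGL95. It was at least 2-fold below both others, or tied with another at 0 RPKM, in 12 members. By the same rule this held for 25.2% of all tested loci. AGL52, AGL82, AGL89 and AT1G17310 were such ties, at 0 RPKM in replicates 1 and 3. Of the 12 members AGL87 alone had a mean above 5 RPKM. Seed coat markers were also highest in Cm x L replicate 3 within the cross, at 461 RPKM in sum, against 138 and 193 RPKM in replicates 1 and 2. Their part in the pattern was not tested.

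**Figure D3:**
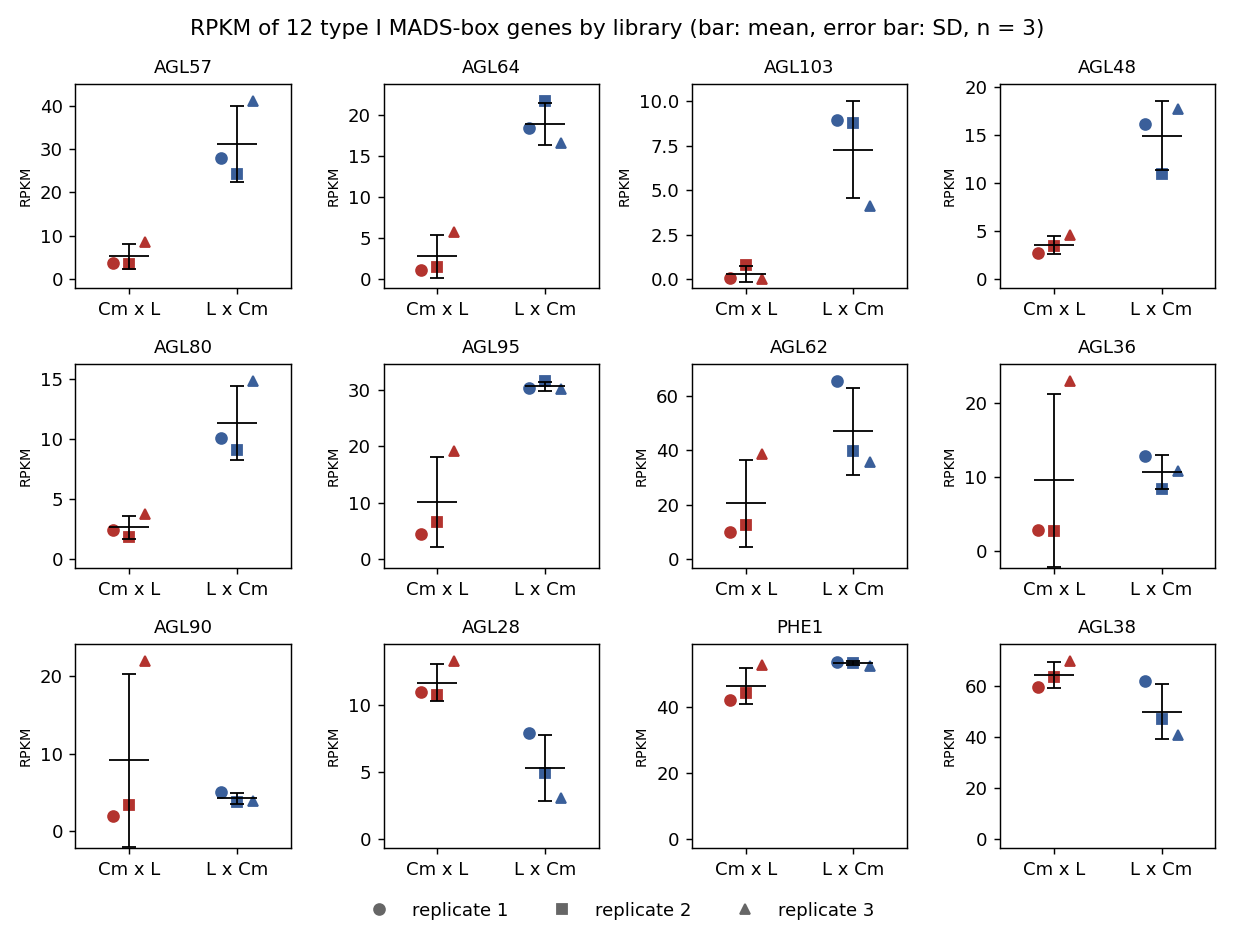
RPKM of 12 members in each library of Cm x L (red, left) and L x Cm (blue, right), with circles, squares and triangles for replicates 1, 2 and 3, a bar for the mean and error bars for the SD (n = 3 per cross). AGL57, AGL64, AGL103, AGL48 and AGL80 are separated between crosses, whereas Cm x L replicate 3 lies above the L x Cm libraries in AGL36 and AGL90 and within their range in AGL62.

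AGL46, AGL86 and AGL92, also M-gamma genes, did not pass. AGL46 had 0.278, 1.17 and 5.61 RPKM in Cm x L and 9.47, 4.35 and 5.56 RPKM in L x Cm, a log2 difference of −1.44 (SE 0.60, adjusted p = 0.11), and passed only without Cm x L replicate 3 (−2.10, adjusted p = 0.014, in a range of 0.014 to 0.48). AGL86 had 1.84 to 3.05 RPKM in Cm x L and 1.63 to 5.23 RPKM in L x Cm. AGL92 had 3.27 to 5.32 RPKM in Cm x L and 1.18 to 5.69 RPKM in L x Cm. In both the groups overlapped. AGL87, named above for its level, passed as higher without Cm x L replicate 3 (1.14, adjusted p = 0.022, in a range of 0.022 to 0.94).

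M-beta genes were scarce in both crosses. AGL103 had 0.0589, 0.804 and 0 RPKM in Cm x L, from 2, 22 and 0 recovered reads, against 8.93, 8.77 and 4.14 RPKM in L x Cm, from 282, 221 and 102 reads (−2.68 on the log2 scale, SE 0.41, adjusted p = 0.0078 by limma). AGL49 had 0.640, 1.98 and 1.37 RPKM in Cm x L and 13.3, 5.01 and 8.99 RPKM in L x Cm (−2.07, SE 0.41, adjusted p = 0.014). Its near copy AGL50 had 0.321 to 0.398 RPKM in Cm x L and 1.35 to 6.69 RPKM in L x Cm and did not pass (adjusted p = 0.066), although its groups did not overlap. AGL76 and AT5G55690 were the other lower M-beta genes, with 0 to 0.549 RPKM in Cm x L and 1.07 to 4.44 RPKM in L x Cm. The direction of AT5G55690 turned with cyclic loess normalization (0.029, adjusted p = 0.96, in a range of 0.026 to 0.96).

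Zeros and reads of the low members were uneven within crosses. Of the 54 genes, 18 were listed at 0 in at least 1 library, with 10, 1 and 17 such genes in the libraries of Cm x L and 0, 3 and 4 in those of L x Cm. AGL99 had 0, 23 and 0 reads in Cm x L and 63, 0 and 31 reads in L x Cm. AGL89 had 0, 23 and 0 reads in Cm x L and 81, 0 and 13 reads in L x Cm, and AGL78 had 1, 13 and 0 reads in Cm x L and 170, 51 and 0 reads in L x Cm. A gene could thus be listed at 0 in 1 library and have 63 or 81 reads in another of the same cross, so a single 0 does not show absence. Of the 14 lower genes, 6 were listed at 0 in a Cm x L library. The calls of 4 lower genes, AGL48, AGL57, AGL64 and AGL103, were kept in each of the 14 alternatives, except that AGL103 was not tested at a minimum mean of 5 RPKM.

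Genes that act beside this family were read from lists in the same fit, where the shares of all loci given above (6.73% higher, 18.3% lower) are the background. At means of 20 RPKM or more the shares were 14.1% higher and 6.7% lower. Of the genes called below, FIS2, FIE, MSI1, HDG3, MINI3, PEG9, TAR1 and VGD1 had means at that level. Among the 4 genes of the Polycomb complex that represses PHE1, 3 were higher in Cm x L (FIS2, FIE and MSI1) and 0 lower. MSI1 had 53.0, 49.1 and 49.1 RPKM in Cm x L and 29.7, 27.2 and 28.4 RPKM in L x Cm (adjusted p = 0.0099 by limma). MEA, its catalytic member, had 6.61, 5.28 and 10.5 RPKM in Cm x L and 15.9, 10.9 and 4.84 RPKM in L x Cm and did not pass (adjusted p = 0.54). Of 4 tested genes of the HAIKU pathway, which acts on endosperm growth, MINI3 and IKU2 were lower. MINI3 had 12.8, 13.3 and 43.4 RPKM in Cm x L and 114, 109 and 129 RPKM in L x Cm. CKX2, a cytokinin oxidase of that list, had 12.5, 14.4 and 66.7 RPKM in Cm x L and 49.1, 40.4 and 55.7 RPKM in L x Cm (adjusted p = 0.20), and it passed as lower without Cm x L replicate 3 (−1.77, adjusted p = 0.0013, in a range of 0.0013 to 0.47). Both had their highest Cm x L value in replicate 3, as did AGL62 and AGL36.

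Of 5 genes of auxin synthesis and export, a pathway that AGL62 is known to affect in seeds, YUC11 and TAR1 were lower and 0 were higher. PGP10, an exporter whose expression depends on AGL62, had 6.69, 8.90 and 14.1 RPKM in Cm x L and 18.7, 14.8 and 12.6 RPKM in L x Cm (adjusted p = 0.13), and it too passed as lower without Cm x L replicate 3 (−0.89, adjusted p = 0.033, in a range of 0.033 to 0.36). Of 6 paternally expressed genes set around PHE1, ADM and PEG9 were lower and HDG3 was higher. HDG3 had 163, 173 and 107 RPKM in Cm x L and 66.8, 66.6 and 60.5 RPKM in L x Cm (adjusted p = 0.011). DME, a DNA demethylase of the central cell, and MYB98, a factor of the synergid cells, did not pass (adjusted p = 0.66 and 0.94 by limma, 0 of 2 at an unadjusted p under 0.05). Of all 26620 tested loci, 11050 had an unadjusted p under 0.05 by limma, which is the background for such counts. In the 6 fits without 1 library, MSI1, MINI3 and HDG3 kept their calls in all, FIE, YUC11, ADM and PEG9 in 3, FIS2 in 2, and IKU2 and TAR1 in 1. The counts ran from 1 to 3 higher for the Polycomb complex, from 1 (5 fits) to 4 lower (without Cm x L replicate 3) for the HAIKU genes, and from 0 to 3 lower for the auxin genes and for the paternally expressed genes. In both of the last lists the count was 3 without Cm x L replicate 3, and 0 when the library left out was replicate 1 of either cross or replicate 2 of L x Cm. Among the tissue markers, 4 of 6 embryo genes (STM, WOX9, PLT1 and CUC3) and 2 of 5 pollen genes (VGD1 and PPME1) were lower. Of 5 endosperm markers FIS2 was higher and IKU2 lower, and 4 had an unadjusted p under 0.05 by limma, beside 11050 of all 26620 loci. FWA did not pass, with 94.8 to 125 RPKM in Cm x L and 72.1 to 84.4 RPKM in L x Cm (adjusted p = 0.088). Nor did ZOU, with 58.1 to 85.6 RPKM in Cm x L and 97.4 to 172 RPKM in L x Cm (adjusted p = 0.053). Of 6 seed coat markers 0 passed, with 1 at an unadjusted p under 0.05. Without Cm x L replicate 3, in which they were highest within the cross, 5 of the 6 seed coat markers were lower (BAN at an adjusted p of 0.028 and TT12 at 0.0090). The pollen count was 5 without Cm x L replicate 2, but 0 once replicate 1 of Cm x L was left out, and likewise for replicates 1 and 2 of L x Cm. VGD1 kept its call in 3 of the 6 fits and PPME1 in 1. The embryo count was 4 or 5 in all 6 such fits.

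The CArG box, the sequence that MADS-domain proteins bind, was searched on both strands from 250 bases before to 50 after each annotated gene start. It was present in 4 of the 54 members (AGL23, AGL56, AT1G72350 and AT5G26630), or 7.41%, and in 3.05% of 27443 protein-coding loci. Of these 4, AGL56 was lower in Cm x L, AGL23 and AT5G26630 did not pass and AT1G72350 was not tested.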

How the data were processed

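Nuclei were purified by INTACT, RNA was taken with the mirVana kit, and poly(A) libraries were made with NEBNext kits, all per the labels. TopHat2 2.1.0 and the build TAIR10 are named in the submitters' processing notes. Which program counted reads, and whether strand was used, is not given in the sources used here. All values are RPKM as deposited by the authors, 1 column per library, each matched to a sample by its cross and replicate number.

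The members and lists were chosen with earlier results of these data known, as were the level bands. Symbols and sequences came from RefSeq TAIR10.1, and a locus with no symbol there is given by its ID. The genes named are the members past the threshold, those with a known role in embryo sac or endosperm, and the most abundant. AGL96 of that rule is not a member. Library totals were recovered from the steps between low values: of pseudogenes under 30 reads, 93.2% to 96.7% per library came out whole within 0.02 reads. With these totals 43 members gave whole reads for an annotated length. Recovered reads carry counting error. limma 3.58.1 in R 4.3.3 fitted log2(RPKM + 1) with an intensity trend, at an adjusted p of 0.05. The fit was tested on simulated data. For a single value, 3 libraries against 3 allow no exact permutation p under 0.1. Sequences were aligned with Biopython 1.88. Alternatives were other pseudocounts, filters and scalings, no trend, a replicate block and leaving out each library.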

Additional observations from a re-analysis of the deposited data

How the results depend on the processing

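Members lower in Cm x L numbered 14 as reported, 7 with a mean of at least 5 RPKM or with quantile normalization, 9 with cyclic loess normalization, and 5 to 16 without 1 library. Shares of all loci were counted for the main fit and both normalizations only. Members higher numbered 1 as reported, 2 with either normalization, 0 to 1 without 1 library, and 0 by limma with a pseudocount of 0.1 RPKM or a mean of at least 5 RPKM, where 1 was higher at an unadjusted p under 0.05. The summed level differed by −233 RPKM between the means of the crosses, whose SDs were 112 RPKM in Cm x L and 344 RPKM in L x Cm. The libraries overlapped, at 919 to 1137 RPKM in Cm x L and 888 to 1543 RPKM in L x Cm, where replicate 3 was the lowest.

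Same-numbered libraries correlated at 0.081, 0.15 and 0.20 in their deviations from the means of the crosses. Between differently numbered libraries the correlations ran from −0.23 to 0.12. The only positive one of these was that of L x Cm replicate 1 with Cm x L replicate 2 (0.12). Deviations cancel within each cross, so positive values at matching numbers bring negative ones elsewhere, which are no separate evidence. The main fit did not pair libraries by number, and whether the numbers pair them was not tested. With a replicate block 14 members were lower and 1 higher. Under it AGL58 and AGL83 gained the call (adjusted p = 0.022 and 0.045 by limma) and AT1G17310 and AT5G55690 lost it (0.056 and 0.057), and 5 pollen, 2 seed coat and 4 paternally expressed genes were lower.

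Apart from AT5G55690 (0.029 with cyclic loess), the genes whose direction turned had not passed. With quantile and cyclic loess normalization the log2 differences were 0.051 and 0.029 for AGL61, 0.93 and 0.86 for AGL86, 0.16 and 0.25 for AGL55, and 0.14 and 0.78 for AGL89. With cyclic loess they were −0.089 for AGL23, 0.21 for AGL82, 0.13 for AGL78 and −0.036 for AGL33. Leaving out 1 library gave −0.51 to 0.95 for AGL90, −0.27 to 0.35 for AGL86, −0.15 to 0.21 for AGL23, −0.43 to 0.13 for AGL91 and −0.71 to 0.41 for AGL33. The cause was not tested. For a gene of 1 kb, 3 reads come to 0.103 to 0.141 RPKM.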
